A study of Mus musculus with 2 samples.

Results

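Germinal centre B cell genes were followed as a group of 8 genes, Bcl6, Mef2b, Myc, S1pr2, Gpr183, Cxcr5, Rgs13 and Fas, chosen by name from the 32285 genes of the count tables. They were described in the B cell cluster of the deposited cell metadata and in barcodes with Cd79a, a B cell gene, that the metadata leave out. The series holds 2 droplet libraries of live CD45+ cells sorted from the colonic lamina propria of C57BL/6 mice. TG stands throughout for the library labelled transgenic, from mice said to overexpress E4BP4, the protein encoded by Nfil3, in macrophages, and WT for the library labelled wild type. Both groups were 8 weeks old, drank 2.0% dextran sulphate sodium (DSS), which injures the colonic epithelium, for 7 days, then plain water for 7 days, and were taken on day 14. There was 1 library per genotype, so all intervals are 95% intervals of counting error only and no test across animals was possible. How many animals were pooled and which promoter drives the transgene are not given in the sources used here.

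Germinal centres are sites in lymphoid tissue, including the follicles of the gut, where B cells that have met antigen divide, mutate their antibody genes and are selected. Bcl6 is the transcription factor that B cells need to take on this state, and Mef2b is a transcription factor that acts upstream of it. S1pr2, a receptor for sphingosine-1-phosphate, keeps the cells inside the germinal centre, and loss of Gpr183, a receptor for oxysterols, lets them stay in the follicle centre. Cxcr5, the receptor for Cxcl13, brings both resting and germinal centre B cells to the follicle. Rgs13 dampens chemokine receptor signals, Fas is a death receptor carried by germinal centre B cells, and Myc, a driver of growth, is switched on in the few cells that have received help.

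Mef2b, S1pr2 and Rgs13 are the 3 members used below to pick out barcodes, and Bcl6 is the regulator after which the state is named, so their promoter windows are printed here. Each window runs 5′ to 3′ from 250 bases before to 50 bases after a transcription start (RefSeq, GRCm38.p6). The start used for Mef2b and the second one of Bcl6 lie inside the genes as GENCODE draws them. Of the 8 members, 6 had an entry, and Myc and Cxcr5 had none. Capitals mark matches to the motifs searched on both strands. These were the octamer ATGCAAAT, the E-box CACGTG, the MEF2 motif and TTCNNNGAA, which BCL6 and STAT proteins can bind.
Mef2b: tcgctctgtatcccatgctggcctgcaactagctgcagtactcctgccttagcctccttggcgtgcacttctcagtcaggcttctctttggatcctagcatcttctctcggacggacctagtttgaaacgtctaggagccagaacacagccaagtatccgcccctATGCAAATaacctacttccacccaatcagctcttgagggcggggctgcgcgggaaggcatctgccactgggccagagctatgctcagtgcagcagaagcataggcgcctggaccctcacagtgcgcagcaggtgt
S1pr2: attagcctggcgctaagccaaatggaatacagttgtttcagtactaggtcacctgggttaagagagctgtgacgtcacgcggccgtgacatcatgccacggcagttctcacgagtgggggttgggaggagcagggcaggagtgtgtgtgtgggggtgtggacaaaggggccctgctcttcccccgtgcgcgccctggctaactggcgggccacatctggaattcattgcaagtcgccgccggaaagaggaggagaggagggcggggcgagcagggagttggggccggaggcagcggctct
Rgs13: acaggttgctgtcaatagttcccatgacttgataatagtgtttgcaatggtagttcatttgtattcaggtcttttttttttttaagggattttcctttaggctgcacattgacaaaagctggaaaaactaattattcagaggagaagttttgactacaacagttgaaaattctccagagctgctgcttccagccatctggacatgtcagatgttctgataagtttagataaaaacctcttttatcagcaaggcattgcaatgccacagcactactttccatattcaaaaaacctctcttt
Bcl6, first window: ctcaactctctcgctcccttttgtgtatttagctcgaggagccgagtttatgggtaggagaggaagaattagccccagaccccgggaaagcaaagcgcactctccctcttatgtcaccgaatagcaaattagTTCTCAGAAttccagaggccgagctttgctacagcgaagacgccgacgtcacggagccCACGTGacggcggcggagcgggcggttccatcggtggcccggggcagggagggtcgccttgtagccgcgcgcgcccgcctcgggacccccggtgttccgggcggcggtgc
Bcl6, second window: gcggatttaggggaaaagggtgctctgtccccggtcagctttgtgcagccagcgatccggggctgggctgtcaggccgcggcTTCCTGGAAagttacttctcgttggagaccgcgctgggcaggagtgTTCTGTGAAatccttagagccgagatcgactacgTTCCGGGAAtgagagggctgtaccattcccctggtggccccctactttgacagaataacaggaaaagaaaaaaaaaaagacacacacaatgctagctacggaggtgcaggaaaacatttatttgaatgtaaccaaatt
The Mef2b window (chr8:70152511-70152810, plus strand) held the octamer 85 bases before the start, a motif found in 1.74% of 32817 windows of this length. The first Bcl6 window (chr16:23988803-23989102, minus strand) held 1 copy of TTCNNNGAA, 118 bases before the start, and an E-box 60 bases before it. E-boxes stood in 7.15% of all windows. The second Bcl6 window (chr16:23981234-23981533, minus strand) held 3 copies of TTCNNNGAA, 168, 122 and 88 bases before the start. At least 1 copy stood in 8.29% of all windows. The windows of S1pr2 (chr9:20976744-20977043, minus strand) and Rgs13 (chr1:144177323-144177622, minus strand) held none of the 4 motifs. A match in letters is a description and not a site.

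In the annotation (GENCODE M21, mm10) Bcl6 lies at chr16:23965052-23988852, Mef2b at chr8:70139711-70167488, Myc at chr15:61985391-61990374 and S1pr2 at chr9:20962361-20976781. Gpr183 lies at chr14:121952551-121965195, Cxcr5 at chr9:44511787-44561877, Rgs13 at chr1:144138654-144177372 and Fas at chr19:34290666-34327772. Mef2b overlaps Borcs8 on the same strand, so reads from their shared stretch could be counted for either gene. Gpr183 lies within Ubac2 and Cxcr5 overlaps Bcl9l, both on the opposite strand.

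The TG library held 10143 barcodes and 58884332 unique molecules (UMIs), and the WT library 9855 barcodes and 69346746 UMIs. The metadata kept 7026 TG and 6466 WT barcodes, and 142 barcode sequences occurred in both libraries, 8 of them in cluster 0 of both. Nfil3 stood at 73.8 UMIs per 1000000 UMIs (CPM) in TG and 84.4 CPM in WT macrophage-like cells (cluster 1), so it was not higher in the library labelled transgenic. Whether the transgene's transcript carries the 5′ end that is counted here is not given in the sources used here. The libraries also differed in RNA of other cells inside the B cell populations. In cluster 0 the 8 neutrophil markers summed to 23.1 CPM in TG and 507 CPM in WT, and the 10 T cell markers to 60.7 CPM in TG and 32.3 CPM in WT. In gene-rich B barcodes, introduced below, neutrophil markers summed to 88.7 CPM in TG and 6545 CPM in WT. Their part in the results was not tested.

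Cluster 0 is B cell-like. Its leading genes were Cd79a, Vpreb3, Fcmr, Cd79b and Ms4a1, all 11 B cell markers were detected, and their sum was 10899 CPM in TG and 10804 CPM in WT. It held 2236 TG cells with a median of 2235 UMIs and 2410 WT cells with a median of 2445 UMIs. Outside the metadata, 1103 TG and 1255 WT barcodes had at least 3 UMIs of Cd79a, the B cell receptor's signalling chain. These left-out B barcodes were of 2 main kinds. The immunoglobulin-rich barcodes (819 TG and 957 WT), of which 54.0% of UMIs in TG and 54.2% in WT were immunoglobulin, carried plasma cell markers at 62055 CPM in TG and 62815 CPM in WT. The gene-rich B barcodes (250 TG and 275 WT) had at least 2200 genes each, with median UMIs of 9839 in TG and 11091 in WT. The other 34 TG and 23 WT barcodes had 5% or more mitochondrial UMIs. Barcodes were assigned by immunoglobulin share before mitochondrial share, and by gene number last. Many immunoglobulin-rich barcodes therefore also had 2200 genes or more, with median genes of 2479 in TG and 2436 in WT.

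The left-out barcodes as a whole were not a germinal centre population. Immunoglobulin took 47.3% of their UMIs in TG and 47.6% in WT, and against cluster 0 the median of all tested genes (at least 20 UMIs over both sides) lay at -0.87 in TG and -0.96 in WT (log2). Against cluster 0, 1 member was at least 1.5-fold higher and 5 were at least 1.5-fold lower in TG, among 12093 tested genes of which 15.6% were higher and 61.1% lower. In WT 1 member was higher and 4 were lower, where 15.7% of genes were higher and 63.3% lower. The higher member was Fas in both libraries, at 27.6 CPM in left-out TG barcodes against 16.6 CPM in TG cluster 0, and at 18 CPM in left-out WT barcodes against 7.76 CPM in WT cluster 0. The 2 kinds of barcode are therefore described apart.

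Of the transcription factors, Mef2b was past 1.5-fold higher in gene-rich B barcodes than in cluster 0 in both libraries, Bcl6 in WT only and within 1.5-fold in TG, and Myc was lower. Whether the ratio of Bcl6 differs between the libraries was not tested. Mef2b stood at 168 CPM in gene-rich TG barcodes and 28.8 CPM in TG cluster 0, a ratio of 5.82. In WT it stood at 131 CPM in gene-rich barcodes and 22.5 CPM in cluster 0, a ratio of 5.81. Bcl6 stood at 44.5 CPM in gene-rich TG barcodes and 33.2 CPM in TG cluster 0, and at 31.6 CPM in gene-rich WT barcodes and 19.5 CPM in WT cluster 0, ratios of 1.34 and 1.62. Myc was lower in the gene-rich barcodes, at 105 CPM against 268 CPM in TG cluster 0 and at 103 CPM against 422 CPM in WT cluster 0.

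Of the receptors, S1pr2 was higher and the other 2 were lower. S1pr2 stood at 48.6 CPM in gene-rich TG barcodes and 7.75 CPM in TG cluster 0, and at 27.2 CPM in gene-rich WT barcodes and 4.28 CPM in WT cluster 0, ratios of 6.27 and 6.37. Gpr183 stood at 119 CPM in gene-rich TG barcodes and 407 CPM in TG cluster 0, and at 107 CPM in gene-rich WT barcodes and 453 CPM in WT cluster 0. Cxcr5 had ratios of 0.366 in TG and 0.296 in WT. The signalling regulator Rgs13 had ratios of 4.39 in TG and 6.70 in WT, and Fas ratios of 3.72 in TG and 6.50 in WT. In this comparison 29% of tested genes were higher and 12.6% lower in TG, against 28.4% and 15.1% in WT, and the median of all genes was 0.17 in TG and 0.14 in WT (log2). Cd79a itself was lower, at 1398 CPM in gene-rich TG barcodes and 3707 CPM in TG cluster 0, a ratio of 0.377. In WT it stood at 1381 CPM in gene-rich barcodes and 3871 CPM in cluster 0. Whether Myc, Gpr183 and Cxcr5 were lower beyond this fall was not tested.

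**Figure D1:**
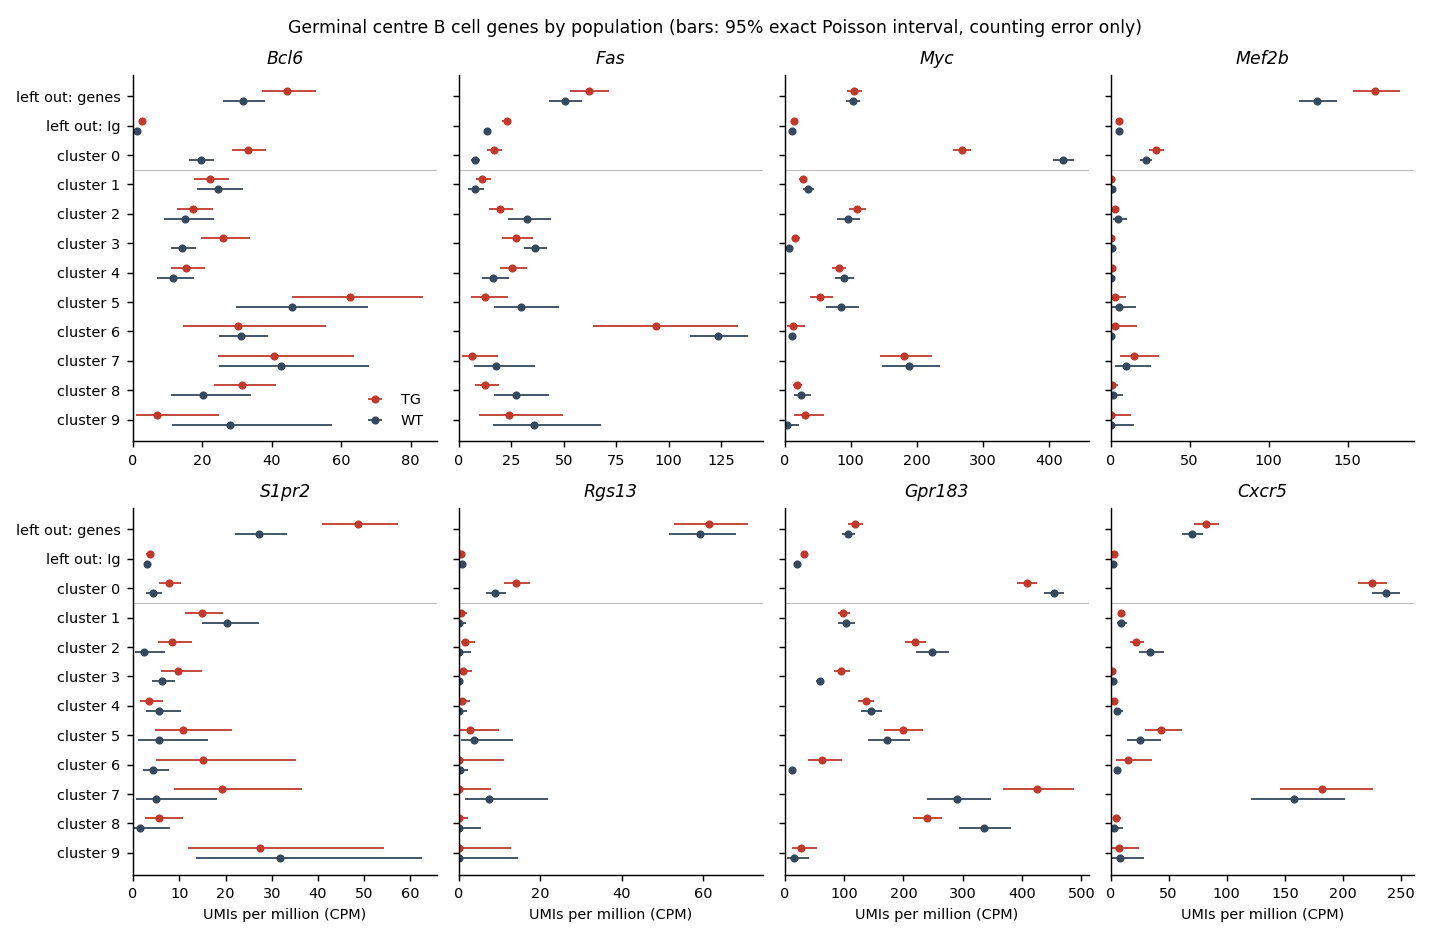
Levels of the 8 genes, in CPM, in the gene-rich and immunoglobulin-rich B barcodes left out of the metadata and in the 10 deposited clusters, with exact Poisson intervals (TG above WT in each row). Mef2b and Rgs13 are highest in the gene-rich B barcodes, Gpr183, Cxcr5 and Myc are highest in cluster 0 or cluster 7, and Fas is highest in cluster 6.

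The 8 genes differed in how far they were limited to B cells. Mef2b was at most 15 CPM in TG and 10.0 CPM in WT in any deposited cluster other than cluster 0, both in cluster 7, and Rgs13 at most 2.72 CPM in TG (cluster 5) and 7.5 CPM in WT (cluster 7). Cluster 7, a cluster of few UMIs that holds B cell and epithelial markers and was given no name, also had Cxcr5 at 182 CPM in TG and 158 CPM in WT. Cxcr5 was below 50 CPM in every other cluster but cluster 0. Fas was highest in neutrophil-like cells (cluster 6), at 93.8 CPM in TG and 124 CPM in WT, and S1pr2 among clusters in fibroblast-like cells (cluster 9), at 27.6 CPM in TG and 31.8 CPM in WT. Bcl6 was highest in cluster 5, at 62.6 CPM in TG and 45.9 CPM in WT, with intervals that overlap those of the gene-rich B barcodes. Gpr183 was at 424 CPM in TG and 290 CPM in WT in cluster 7, so its intervals in cluster 7 and cluster 0 overlap in TG and do not in WT.

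Gene-rich barcodes with no Cd79a UMI served as background for shares of barcodes with a UMI, since their median depth was similar, at 10172 UMIs in TG and 10021 UMIs in WT. Mef2b was found in 40.8% of gene-rich B barcodes in TG and 32.7% in WT, against 0.211% and 0.378% of these other barcodes. Rgs13 was found in 27.2% in TG and 24.0% in WT, against 0% and 0.0756%. Cxcr5 was found in 55.2% in TG and 51.3% in WT, against 1.48% and 1.97%. For S1pr2, Gpr183, Fas and Bcl6 the background was higher, and its source was not tested. Myc is not compared here. S1pr2 was found in 31.2% in TG and 19.6% in WT, against 6.55% and 6.95%, and Gpr183 in 54.8% in TG and 56.0% in WT, against 51.1% and 42.6%. Fas was found in 35.6% in TG and 32.4% in WT, against 11.3% and 16.6%. Bcl6 was found in 32.4% in TG and 27.3% in WT, against 20.6% and 14.4%.

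The members were found together in a minority of barcodes. Mef2b, S1pr2 and Rgs13 served as a set of 3, and a barcode with at least 2 of them is called a GC-gene barcode. Of the left-out B barcodes 93 of 1103 were GC-gene barcodes in TG, which is 8.43% (6.86 to 10.2, Clopper-Pearson), and 85 of 1255 in WT, which is 6.77% (5.45 to 8.31). Most of them were gene-rich. Of gene-rich B barcodes 82 of 250 qualified in TG (32.8%) and 69 of 275 in WT (25.1%), against 10 of 819 immunoglobulin-rich barcodes in TG (1.22%) and 16 of 957 in WT (1.67%). All 3 genes were present in 43 gene-rich B barcodes in TG and 34 in WT. No barcode qualified among 946 gene-rich TG barcodes and 1323 gene-rich WT barcodes with no Cd79a UMI, with upper bounds of 0.389% and 0.278%. Just outside the limit of 3 Cd79a UMIs, 0 of 96 TG and 1 of 97 WT left-out barcodes with 2 UMIs qualified, and just inside it 1 of 69 TG and 2 of 75 WT barcodes with 3 UMIs.

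In cluster 0, 46 of 2236 cells were GC-gene cells in TG, 2.06% (1.51 to 2.73), and 24 of 2410 in WT, 0.996% (0.639 to 1.48). Of all GC-gene barcodes of both populations, cluster 0 held 33.1% in TG and 22.0% in WT, so most lay outside the metadata. Of the GC-gene cells of cluster 0, 45 TG and 22 WT cells fell in the larger of the finer deposited clusters within it, which held 1851 TG and 2107 WT cells. The number of genes per barcode separated them further. Pooling cluster 0 with the gene-rich B barcodes, at most 0.888% of barcodes with 500 to 1499 genes qualified in TG and 0.0917% in WT. From 1500 up to the limit of 2200 genes 25.7% of 152 qualified in TG and 12.2% of 181 in WT. Above 4000 genes 52.0% of 25 qualified in TG and 45.7% of 35 in WT. These shares were not corrected for depth, and when each barcode was thinned to 2000 UMIs 1.59% of 1445 TG cells and 0.443% of 1807 WT cells of cluster 0 still qualified, as did 10.8% of gene-rich B barcodes in TG and 8% in WT. At 1000 UMIs 4 of 2148 TG cells and 5 of 2304 WT cells of cluster 0 qualified, so the difference between the libraries in cluster 0 was not detectable at that depth.

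**Figure D2:**
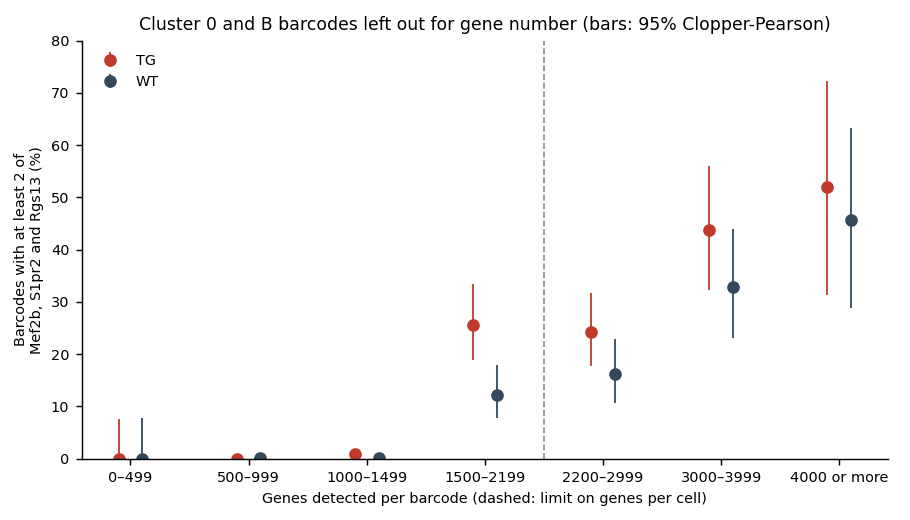
Share of barcodes with at least 2 of Mef2b, S1pr2 and Rgs13 (vertical axis, percent, with Clopper-Pearson intervals) by number of genes per barcode, over cluster 0 and the gene-rich B barcodes, TG left of WT in each range. The share is under 1% in both libraries below 1500 genes, is 25.7% in TG and 12.2% in WT just under the dashed limit of 2200 genes, and reaches 52.0% in TG and 45.7% in WT above 4000 genes. Immunoglobulin-rich barcodes are left out at every number of genes.

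The pooled share over cluster 0 and gene-rich B barcodes was 5.15% in TG (128 of 2486) and 3.46% in WT (93 of 2685), a ratio of 1.49 (1.13 to 1.96). Within cluster 0 the ratio was 2.07 (1.24 to 3.54), and within the gene-rich B barcodes it was 1.31 (0.937 to 1.83), an interval that holds 1. The WT barcodes were the deeper ones in both populations.

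Co-detection in gene-rich B barcodes tied 4 of the members together. Of TG barcodes with Rgs13, 63 of 68 also had Mef2b (92.6%), against 21.4% of those without Rgs13. In WT 58 of 66 barcodes with Rgs13 had Mef2b (87.9%), against 15.3% without. Of barcodes with Mef2b, 70.6% in TG and 65.6% in WT had Fas, against 17 of 148 TG and 30 of 185 WT barcodes without Mef2b, and 58.8% in TG and 47.8% in WT had S1pr2, against 12.2% and 5.95%. Bcl6 was found in 47.1% of TG and 46.7% of WT barcodes with Mef2b, against 22.3% and 17.8% of those without.

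Gpr183 ran the other way. It was found in 28.4% of TG and 18.9% of WT barcodes with Mef2b, against 73.0% and 74.1% of those without. Cxcr5 and Myc differed less between the 2 kinds. Cxcr5 was found in 63 of 102 TG and 54 of 90 WT barcodes with Mef2b, against 50.7% and 47.0% without, and Myc in 45.1% and 35.6%, against 46.6% and 42.2%. Depth raises the chance of finding any pair together, so the same shares were taken after thinning to 2000 UMIs. Of barcodes that then had Rgs13, 61.9% in TG and 55.9% in WT had Mef2b, against 19.2% and 10.8% of the rest, and Gpr183 was found in 3.5% in TG and 4.4% in WT of those with Mef2b, against 27.5% and 19.6%.

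**Figure D3:**
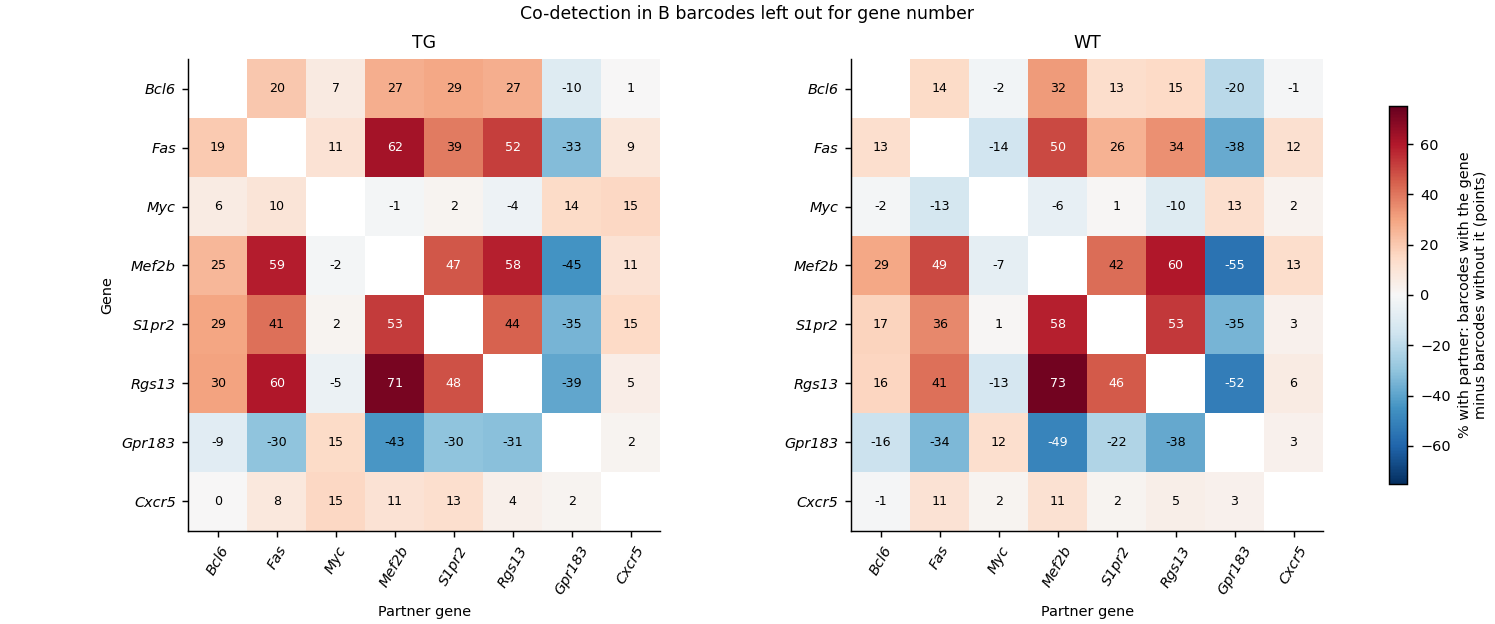
Co-detection of the 8 genes in gene-rich B barcodes, TG on the left and WT on the right. Each cell gives the percent of barcodes with the partner gene (column) among those with the gene (row), minus the percent among those without it, in percentage points; Mef2b, S1pr2, Rgs13 and Fas are positive with each other in both libraries and Gpr183 is negative with each of them.

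In cluster 0, at lower depth, the genes paired likewise. Of cells with Rgs13, 69.0% in TG and 57.7% in WT had Mef2b, against 3.14% and 3.90% of cells without, and 9.5% in TG and 23.1% in WT had Gpr183, against 51.6% and 56.5%. Fas was found in 27.6% of TG and 16.7% of WT cells with Mef2b, against 1.87% and 0.91% of those without. Most cells of cluster 0 held few members. None of the 8 genes was found in 22.5% of TG and 18.9% of WT cells, and none in 11 of 250 TG and 12 of 275 WT gene-rich B barcodes. All 8 were found in 3 gene-rich B barcodes in TG and 0 in WT.

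Against all other left-out B barcodes, most of them immunoglobulin-rich, the GC-gene barcodes had Bcl6 at a ratio of 13.5 in TG and 11.49 in WT, where 65% of tested genes in TG and 60.9% in WT were higher. Because of that difference in kind, the GC-gene barcodes among gene-rich B barcodes were also set against gene-rich ones with none of the 3 genes (127 TG and 168 WT), a comparison chosen after the data were seen. It is read only for genes the split did not use. Fas stood at 132 CPM in TG GC-gene barcodes and 10.9 CPM in TG barcodes with none, a ratio of 12.1 (7.07 to 22.1), and at 107 CPM and 16.6 CPM in WT, a ratio of 6.41 (4.30 to 9.79). Bcl6 stood at 74.6 CPM and 30.6 CPM in TG, a ratio of 2.44 (1.66 to 3.63), and at 49.3 CPM and 21.7 CPM in WT, a ratio of 2.28 (1.48 to 3.51). Gpr183 stood at 28.6 CPM and 181 CPM in TG, a ratio of 0.157 (0.105 to 0.229), and at 24.2 CPM and 157 CPM in WT, a ratio of 0.154 (0.0972 to 0.234). Cxcr5 had ratios of 1.35 in TG and 1.17 in WT. Myc had ratios of 0.888 (0.686 to 1.15) in TG and 0.568 (0.417 to 0.763) in WT. Of these 5 members, Fas and Bcl6 were past 1.5-fold higher and Gpr183 past 1.5-fold lower in both libraries, and Myc past it in WT, where 54.5% of all tested genes in TG and 57.6% in WT were past 1.5-fold one way or the other.

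The barcodes with none of the 3 genes carried more RNA of other cells. At least 0.5% of UMIs came from markers of T cells, macrophages, monocytes, neutrophils, fibroblasts or epithelium in 71.7% of them in TG and 83.3% in WT, against 9.76% of GC-gene barcodes in TG and 13% in WT. The 10 macrophage markers summed to 2067 CPM in TG and 2997 CPM in WT GC-gene barcodes, and to 8619 CPM in TG and 10779 CPM in WT barcodes with none. With the barcodes of 0.5% or more set aside (74 TG and 60 WT GC-gene barcodes and 36 TG and 28 WT barcodes with none remained), Fas had ratios of 11.2 in TG and 8.97 in WT and Gpr183 of 0.159 and 0.0617. Bcl6 then had ratios of 1.6 (0.943 to 2.87) in TG and 2.15 (1.04 to 5.01) in WT, Cxcr5 of 0.95 and 0.825, and Myc of 0.581 and 0.687. The members past 1.5-fold are here to be read against 50.3% of tested genes in TG and 47.9% in WT.

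Other gene lists were described in the same GC-gene comparison, with counts of listed genes that had at least 20 UMIs and were past 1.5-fold, where 27.5% of all tested genes were higher and 27.1% lower in TG, 29.3% and 28.3% in WT, and the all-gene median was 0.07 in TG and 0.10 in WT (log2). Some genes stand in more than 1 list. The list counts use all these barcodes, those of 0.5% or more other-lineage UMIs included. The part of other cells' RNA in them, higher or lower, was not tested. All 20 cell division genes were higher in both libraries, with medians of 3.11 in TG and 3.18 in WT (log2). Among them Mki67, a protein of dividing cells, stood at 521 CPM in TG and 521 CPM in WT GC-gene barcodes, and at 56.8 CPM in TG and 46.4 CPM in WT barcodes with none. Its ratio in TG was 9.18 (7.23 to 11.8). With barcodes of 0.5% or more other-lineage UMIs set aside, that TG ratio fell to 3.84 (2.91 to 5.14). Of 12 genes of the dark zone, where germinal centre cells divide and mutate, 11 were higher and 1 lower in both libraries. The lower one was Cxcr4, the receptor that draws cells to that zone, at ratios of 0.595 in TG and 0.635 in WT.

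Genes of hypermutation and class switching were higher for 12 of 14 in TG and 13 of 14 in WT, with none lower. Polh, an error-prone polymerase, had ratios of 9.80 in TG and 21.6 in WT, and Msh6, of mismatch repair, 6.14 and 4.58. Of other genes of the germinal centre programme 16 of 21 were higher and 2 lower in both libraries. Neil1, a DNA glycosylase, had ratios of 21.7 in TG and 17 in WT, Gcsam, a germinal centre signalling adaptor, 29.1 and 8.36, and Pou2af1, a B cell coactivator, 11.6 and 7.85. The lower ones were Cd38, at 0.333 and 0.278, and the inhibitory receptor Fcgr2b, at 0.440 and 0.434. Of 16 Myc target and biosynthesis genes 10 were higher in TG and 9 in WT, with none lower, while Myc itself was at the ratios above.

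The lists of resting, memory and light zone cells ran lower. Of 13 resting follicular genes 12 were lower in TG, with none higher, and 10 were lower and 1 higher in WT. Ighd, the constant region of IgD, had ratios of 0.0988 in TG and 0.0627 in WT, Ccr7, a homing receptor, 0.0657 and 0.0513, and Klf2, a factor of quiescence, 0.157 and 0.160. Of memory genes 7 of 9 were lower and 1 higher in TG, and 9 of 10 were lower in WT with none higher. Of 17 light zone genes, Gpr183 and Myc among them, 12 were lower and 1 higher in TG, and 14 were lower and none higher in WT. Cd83, an activation marker, had ratios of 0.514 in TG and 0.599 in WT.

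The S1P and oxysterol list holds S1pr2, which made the split, so only single genes of it are given. S1pr1, the receptor that lets cells leave tissue, had ratios of 0.153 in TG and 0.367 in WT, and P2ry10, a lysophospholipid receptor, 0.255 and 0.212. Gna13, the G protein through which S1pr2 signals, had 1.5 in TG and 1.83 in WT. In the death receptor list 4 of 12 were higher and 6 lower in TG, and 3 of 11 higher and 4 lower in WT. Bid, which links death receptors to mitochondria, had ratios of 4.24 in TG and 4.46 in WT, while the survival genes Bcl2 and Mcl1 were lower, Bcl2 at 0.0684 and 0.0570 and Mcl1 at 0.358 and 0.418. The count of Bcl2 in GC-gene barcodes was 4 UMIs in TG and 2 in WT.

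**Figure D4:**
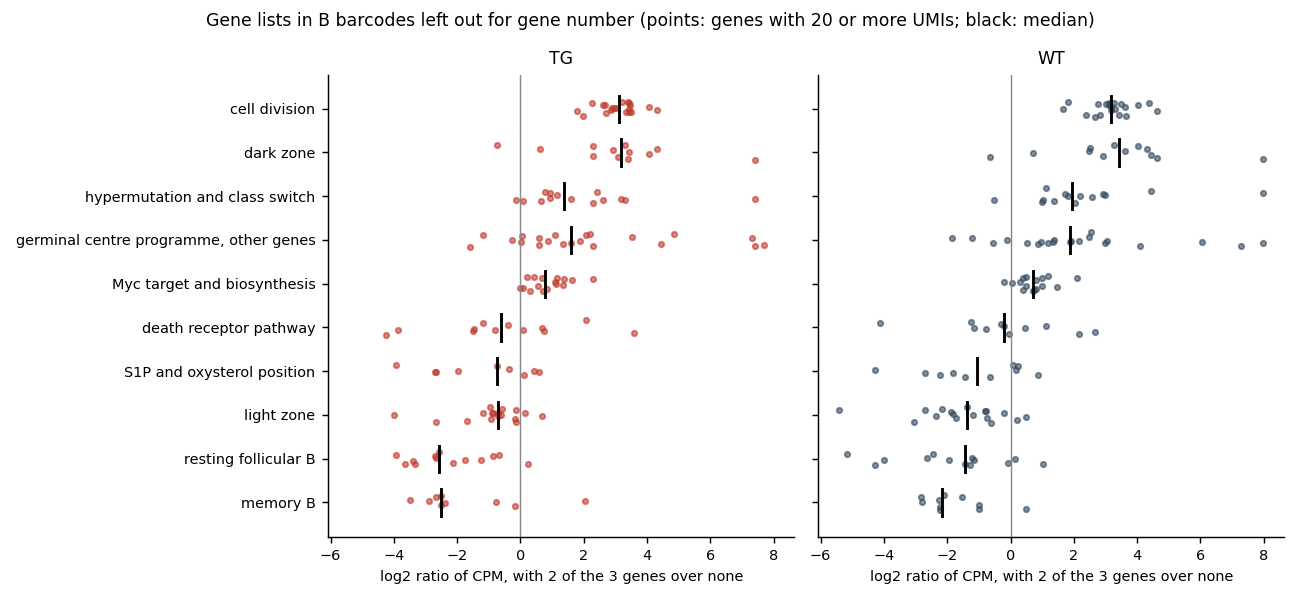
Gene lists in gene-rich B barcodes with at least 2 of Mef2b, S1pr2 and Rgs13 over those with none, as the log2 ratio of CPM, TG on the left and WT on the right. Points are listed genes with 20 or more UMIs (S1pr2 left out, since the split used it) and black lines are list medians; cell division and dark zone genes lie right of 0 except Cxcr4, and most resting, memory and light zone genes lie left of 0.

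GC-gene cells within cluster 0 were set against the other cells of cluster 0 in the same way (46 against 2190 in TG, 24 against 2386 in WT). Fas had ratios of 14.2 in TG and 40.8 in WT, Gpr183 of 0.106 and 0.0645, and Myc of 0.179 and 0.139. Bcl6 had a ratio of 2.76 (1.62 to 4.45) in TG and 1.95 (0.623 to 4.69) in WT, where its count was 5 UMIs. Cxcr5 had ratios of 0.980 in TG and 0.594 in WT. In this comparison 55.5% of tested genes in TG and 62.1% in WT were past 1.5-fold.

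The library labelled TG was set against WT within each population. In cluster 0, Bcl6, Fas, S1pr2 and Rgs13 were higher in TG and Myc was lower, each past 1.5-fold. That is 4 members higher and 1 lower of 8, where 7.22% of 10665 tested genes were higher, 5.61% lower and 12.8% either. The median over the 8 members was 0.51 and over all genes 0.02 (log2). Bcl6 stood at 33.2 CPM in TG and 19.5 CPM in WT, a ratio of 1.71 (1.35 to 2.16), and Fas at 16.6 CPM in TG and 7.76 CPM in WT, a ratio of 2.14 (1.5 to 3.10). S1pr2 stood at 7.75 CPM (42 UMIs) in TG and 4.28 CPM (27 UMIs) in WT, a ratio of 1.81 (1.09 to 3.06), and Rgs13 at 14 CPM and 8.87 CPM, a ratio of 1.58 (1.11 to 2.28). Their intervals do not hold 1, but counting error leaves out differences between animals.

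Myc stood at 268 CPM in TG and 422 CPM in WT, a ratio of 0.635 (0.595 to 0.677), and was found in 30.1% of TG and 38.5% of WT cells. Gpr183 stood at 407 CPM in TG and 453 CPM in WT (ratio 0.899), Cxcr5 at 225 CPM and 237 CPM (0.951) and Mef2b at 28.8 CPM and 22.5 CPM (1.28), all within 1.5-fold. Without the GC-gene cells the ratio of Bcl6 was 1.62 (1.27 to 2.08), of Fas 2.56 (1.58 to 4.25) and of Myc 0.645 (0.605 to 0.688). S1pr2 was then left with 9 UMIs in TG and 2 in WT, and Rgs13 with 11 and 12. The 46 GC-gene cells of TG held 33 UMIs of S1pr2 and 65 of Rgs13, and the 24 of WT held 25 and 44. The values of Mef2b, S1pr2 and Rgs13 after the removal are set by it and are not read. Of Bcl6, Fas, Myc, Gpr183 and Cxcr5, which the removal did not use, Bcl6 and Fas were past 1.5-fold higher and Myc lower. Over all tested genes 7.02% were higher and 5.55% lower.

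**Figure D5:**
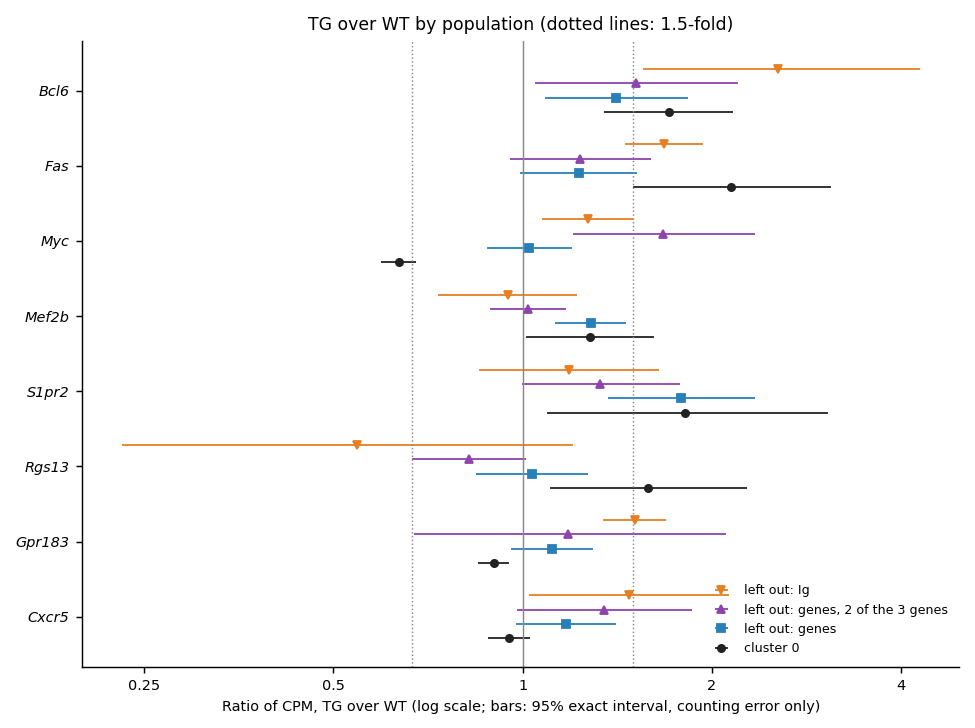
Ratio of CPM in the library labelled TG over WT (log axis) for each gene, in immunoglobulin-rich barcodes, gene-rich GC-gene barcodes, all gene-rich B barcodes and cluster 0, with exact intervals for counting error only; dotted lines mark 1.5-fold. Myc lies left of the lower dotted line in cluster 0 and right of the upper one in GC-gene barcodes. Mef2b, S1pr2 and Rgs13 picked the GC-gene barcodes, so their ratios there are not read.

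In gene-rich B barcodes 1 member of 8 was past 1.5-fold between the libraries, where 11.6% of tested genes were higher and 7.76% lower. It was S1pr2, at 48.6 CPM in TG and 27.2 CPM in WT, a ratio of 1.78 (1.37 to 2.34). Without barcodes of 0.5% or more other-lineage UMIs it stood at 71.4 CPM in 130 TG barcodes and 50.8 CPM in 110 WT barcodes, within 1.5-fold. Bcl6 had a ratio of 1.41, Fas of 1.23, Mef2b of 1.28, Cxcr5 of 1.17, Gpr183 of 1.11, Rgs13 of 1.04 and Myc of 1.02. Among the left-out B barcodes as a whole, 3 members were higher in TG and 0 lower, where 14.9% of tested genes were higher and 5.05% lower. These were Bcl6 at 1.63 (1.30 to 2.04), Fas at 1.53 (1.36 to 1.72) and S1pr2 at 1.54 (1.25 to 1.89). In the immunoglobulin-rich barcodes alone 3 members were higher (Bcl6, Fas and Gpr183) and 1 lower (Rgs13), where 18.1% of tested genes were higher and 4.81% lower. Fas stood at 22.8 CPM in TG and 13.6 CPM in WT, and Rgs13 at 0.480 CPM (10 UMIs) in TG and 0.879 CPM (22 UMIs) in WT. Macrophage markers in those barcodes summed to 520 CPM in TG and 284 CPM in WT, and neutrophil markers to 34.4 CPM in TG and 682 CPM in WT.

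Within the gene-rich GC-gene barcodes (82 TG and 69 WT) division genes were within 1.5-fold. None of 20 cell division genes and none of 12 dark zone genes was past 1.5-fold, and Mki67 had a ratio of 1.00 (0.887 to 1.13). Of Bcl6, Fas, Myc, Gpr183 and Cxcr5, which did not pick these barcodes, Bcl6 and Myc were past 1.5-fold, both higher in TG. Over all tested genes 10.1% were higher and 9.29% lower. Bcl6 stood at 74.6 CPM in TG and 49.3 CPM in WT, a ratio of 1.51 (1.05 to 2.20). Myc stood at 97.6 CPM in TG and 58.4 CPM in WT, a ratio of 1.67 (1.20 to 2.34), and 5 barcodes held 41.5% of its UMIs in TG and 53.4% in WT. Mef2b, S1pr2 and Rgs13 picked these barcodes, so their ratios here are not read.

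Light zone genes in these barcodes were higher in TG for 5 of 15 and lower for 1, beside 10.1% of all tested genes higher and 9.29% lower. Egr1, an immediate early transcription factor, stood at 184 CPM in TG and 48.3 CPM in WT, a ratio of 3.81 (2.77 to 5.34). In cluster 0 Egr1 was lower in TG, at 183 CPM against 284 CPM in WT, a ratio of 0.645 (0.596 to 0.697). Gcsam was higher in TG in both settings, at 191 CPM against 67.5 CPM in GC-gene barcodes, and at 8.49 CPM (46 UMIs) against 0.317 CPM (2 UMIs) in cluster 0, a ratio of 26.8 (7.01 to 228). Of the germinal centre programme list 5 of 21 genes were higher in TG in cluster 0 and none lower, beside 7.22% of all tested genes higher and 5.61% lower, with Gcsam, Mybl1, Nuggc and Basp1 among the higher ones. None of the 13 resting follicular genes and none of the 16 Myc target genes was past 1.5-fold there. In the GC-gene barcodes, with the shares of all genes given above, epithelial markers were higher in TG for 5 of 5 and macrophage markers lower for 6 of 10, and their part in these ratios was not tested.

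The genes whose levels were most like those of 4 members across 12 populations in each library (24 points that share 2 libraries and differ in depth, Pearson's r of log2(CPM + 1), 13331 genes) were found by rank. Among the 3 for Mef2b were Cpne5 (0.905) and Gm2447 (0.895), and among the 3 for Rgs13 Gm12678 (0.941) and Gh (0.885). For Bcl6 they were Fkbp15 (0.893), Zfp106 (0.881) and Arhgap17 (0.874), and for S1pr2 Igf1 (0.834), Gdf15 (0.827) and Ptgs1 (0.795). Between members the highest values were for Mef2b with Rgs13 (0.863) and Myc with Cxcr5 (0.812).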

How the data were processed

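The data are 2 droplet 5′ single-cell RNA libraries, 1 per genotype. The deposited count tables hold unnormalized UMI counts for 32285 genes, and the deposited metadata give cluster numbers and, per the file headers, the percent of each cell's UMIs from mitochondrial and immunoglobulin genes. The submitters' processing notes name the mm10 build with Cell Ranger 5.0.0 and with Seurat 4.0, whose settings are not given in the sources used here. The reasons barcodes were left out of the metadata (2200 or more genes, 5% or more mitochondrial UMIs, 5% or more UMIs of 1 immunoglobulin class) were inferred from the values. Where more than 1 applied, immunoglobulin share was taken before mitochondrial share, and gene number last.

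Counts were summed per population and library and divided by all UMIs (CPM). Intervals are at 95%, conditional binomial (exact) for a ratio, Poisson (exact) for a level and Clopper-Pearson for a share, and stand for counting error only, since cells of 1 library are not replicates. A gene was called at a ratio of 1.5 or more either way with at least 20 UMIs over both sides. Barcodes were thinned to 1000 or 2000 UMIs where shares were compared across depths. Scrublet's automatic threshold called 1 TG and 0 WT barcodes and did not work, so no doublets were removed in the main values, and an alternative left out the 8% with the highest scores. Of 245 listed genes 1, Fdcsp, was not in the table, and 38 symbols occur for more than 1 gene. The members and lists were chosen with earlier results of these data known. Named were all members, up to 4 genes per list with the largest ratios, the 3 genes most like each of 4 members and the 10 leading genes of GC-gene barcodes, less 1 gene that is not reported; other listed genes were named for their known roles after their values were seen. Alternatives changed scaling, totals, minimum counts, fold, Cd79a minimum, doublets and depth, and those added after seeing the data left out GC-gene barcodes or barcodes of 0.5% or more other-lineage UMIs. Scripts used python 3.11.15, numpy 2.4.6, scipy 1.17.1, pandas 2.3.3, scanpy 1.11.5 and matplotlib 3.10.9, and were tested on simulated data.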

Additional observations from a re-analysis of the deposited data

Results flagged for a closer look

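Myc differed between TG and WT in opposite directions in different B cell populations. Its ratio of TG over WT was 0.635 in cluster 0, 1.15 in the left-out B barcodes as a whole and 1.67 in the gene-rich GC-gene barcodes. Among GC-gene barcodes with at least 2 of Mki67, Top2a, Ccna2 and Cdk1, Myc stood at 87.7 CPM in 64 TG barcodes and 62.8 CPM in 53 WT barcodes. Among those with none of these 4 genes, Myc had 23 UMIs in 9 TG barcodes and 1 UMI in 7 WT barcodes. Gpr183 had a ratio of 0.899 in cluster 0 and 1.34 in the left-out B barcodes. These differences between populations were not tested.

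Barcodes with at least 2 of Mef2b, S1pr2 and Rgs13 were also found outside both B cell populations, 3 in TG and 6 in WT. In each library 1 lay in cluster 2, 1 in cluster 5 and 1 in cluster 7. The barcode in cluster 2 had 22 Cd79a UMIs in TG and 14 in WT, that in cluster 5 had 6 in TG and 3 in WT, and that in cluster 7 had 0 in TG and 1 in WT. The other 3 WT barcodes were left out of the metadata with 1, 1 and 2 UMIs of Cd79a.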

How the results depend on the processing

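No paired analysis was possible because there is 1 library per genotype. For TG over WT in cluster 0, 5 members were past 1.5-fold, against 1 at 2-fold and 3 without GC-gene barcodes. In the left-out B barcodes 3 members were past it, against 1 with median-of-ratios scaling, 0 at 2-fold, 5 without barcodes of 5 or more other-lineage UMIs, 1 without GC-gene barcodes, 0 at 10 or more Cd79a UMIs and 1 in gene-rich barcodes only. Leaving out GC-gene barcodes takes away UMIs of Mef2b, S1pr2 and Rgs13 by design, so the counts without them cannot be read for these genes. The limit of 5 other-lineage UMIs set aside 89.6% of gene-rich B barcodes in TG and 97.5% in WT. For left-out barcodes over cluster 0, the 5 members past 1.5-fold in WT became 8 with median-of-ratios scaling, 8 with totals without immunoglobulin, 8 with the mean of per-cell CPM and 8 in gene-rich barcodes only. There Rgs13 in TG turned to 1.05 with median-of-ratios scaling, 1.06 without immunoglobulin in the totals, 1.88 with per-cell CPM, 4.25 without barcodes of 5 or more other-lineage UMIs and 4.39 in gene-rich barcodes only, and Bcl6 turned to 1.34 in TG and 1.62 in WT in gene-rich barcodes only.

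The share of left-out barcodes with 2 of the 3 genes, 8.43% in TG, became 6.47% at 1 Cd79a UMI, 12.9% at 10, 32.8% in gene-rich and 1.22% in immunoglobulin-rich barcodes, 22.1% without barcodes of 5 or more other-lineage UMIs and 22.7% with 1 of the 3 genes. Thinning gave 0.644% at 1000 UMIs, 1.58% at 2000 and 1.11% at 1000 outside immunoglobulin. The WT share of 6.77% became 11.4% at 10 Cd79a UMIs, 25.1% in gene-rich and 1.67% in immunoglobulin-rich barcodes, and 21.3% with 1 gene, and thinning gave 0.725%, 1.22% and 0.967%. The share with a wider gene set is not reported here. The causes were not tested, beyond the smaller or different set of barcodes each alternative uses. Over the alternatives run in cluster 0, the ratio of TG over WT ranged from 1.62 to 1.76 for Bcl6, 0.626 to 0.659 for Myc, 2.11 to 7.5 for Fas, 1.40 to 5.36 for S1pr2 and 1.53 to 11.9 for Rgs13. The highest values of the last 3 came without barcodes of 5 or more other-lineage UMIs, and the 1.40 of S1pr2, within 1.5-fold, with the finer clusters weighted equally. That limit of 5 UMIs fell unevenly on the libraries. It set aside 24 of 46 TG and 23 of 24 WT GC-gene cells of cluster 0. Of all cells of cluster 0 it set aside 30.5% in TG and 53.2% in WT. Other single-gene values stayed within their spread in 197 cases and moved in 150.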

Other observations

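By the rule for leading genes, those that most set GC-gene barcodes apart from the other left-out B barcodes, most of them immunoglobulin-rich, included Gh, H1fx, Mybl1, Cpne5, Ell3, Pdzd2, Efnb1, Bfsp2 and Cenps. Against gene-rich barcodes with none of the 3 genes, the 10 leading genes included Mybl1, H1fx and Cenps again, with Nuggc, Eaf2, Hmces, Rassf6, Neil1 and Cecr2, and not Gh. Against the other left-out barcodes Gh, growth hormone, ranked first, with 26 UMIs in 93 GC-gene barcodes and 2 in 1010 others in TG, a ratio of 216 (54.0 to 1874), and 34 UMIs in 85 and 3 in 1170 in WT, a ratio of 198 (62.2 to 1006). Efnb1, a membrane ephrin, had ratios of 27.7 in TG and 39.1 in WT, and Bfsp2, a filament protein known from the lens, 48.6 and 24.6.

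Antibody classes also differed within gene-rich B barcodes. Ighg2b, the constant region of IgG2b, was found in 54.9% of GC-gene barcodes in TG and 52.2% in WT, against 7.87% of barcodes with none of the 3 genes in TG and 7.74% in WT. In gene-rich barcodes with no Cd79a UMI it was found in 2.64% in TG and 2.57% in WT. The level of Ighg2b in GC-gene barcodes was 398 CPM in TG and 188 CPM in WT. It was also higher in TG in cluster 0, at 62.2 CPM against 29.1 CPM in WT. The same held in immunoglobulin-rich barcodes, at 840 CPM in TG and 365 CPM in WT. In barcodes with none of the 3 genes it was lower in TG, at 11.7 CPM against 20.2 CPM in WT. Ighg3 was lower in TG in GC-gene barcodes, at 8.29 CPM against 55.4 CPM in WT. Ighg2c had 27 UMIs in 13 TG GC-gene barcodes and Ighg1 59 UMIs in 5, and both had 0 UMIs in the 69 WT ones. For Ighg2c this difference between the libraries was not particular to GC-gene barcodes. It was found in 5.41% of TG and 0.166% of WT cells of cluster 0. In gene-rich barcodes with no Cd79a UMI the shares were 5.29% in TG and 0.454% in WT. Ighg1 too was higher in TG outside GC-gene barcodes. It stood at 125 CPM in TG and 26.6 CPM in WT immunoglobulin-rich barcodes, and at 10.5 CPM and 4.75 CPM in cluster 0. In barcodes with none of the 3 genes it stood at 9.47 CPM (13 UMIs) in TG and 1.51 CPM (3 UMIs) in WT. Only in gene-rich barcodes with no Cd79a UMI was it lower in TG, at 0.525 CPM against 1.37 CPM in WT. Ighd stood at 13.8 CPM in TG and 6.04 CPM in WT GC-gene barcodes, and at 139.8 CPM in TG and 96.3 CPM in WT barcodes with none. Igha cannot be read this way, since it was found in 95.5% of TG and 85.4% of WT gene-rich barcodes with no Cd79a UMI.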
